A study of Mus musculus with 10 samples.

Results

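Collagen genes were followed in the visceral fat of diet-fed mice with and without serglycin. A gene belonged to the set when its symbol read Col, a number, the letter a and a second number, and when its row held at least 15 reads over the 10 libraries. Of the 23930 rows of the count table, 44 carried such a symbol and 37 reached 15 reads: 10 fibrillar, 6 basement membrane (type IV), 6 type VI and 15 other collagen genes. Col11a2, with 20 reads, lay just inside the limit and Col22a1, with 11 reads, just outside; the other 6 rows left out held 1 to 9 reads.

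Each library came from the epididymal white adipose tissue of a male C57BL/6 mouse aged 18 weeks that had eaten a diet high in sucrose and fat for 8 weeks, so both groups were diet-fed and no lean animal was included. The genotypes were Srgn+/+ (5 libraries) and Srgn-/- (5 libraries), the second lacking serglycin, the granule proteoglycan of mast cells and other blood-derived cells. The labels give each library as a separate sample without naming litters or cages, and every p-value here rests on the spread between samples that may share a source. Libraries held 7824764 to 10757779 reads, and each gene was read at 1 amplicon, so that levels are compared between libraries and never between genes. The Srgn amplicon had 776, 1047, 1301, 851 and 1005 reads in Srgn+/+ 1 to 5 and 3, 1, 0, 0 and 12 reads in Srgn-/- 1 to 5 (log2 fold change -8.18, edgeR adjusted p = 9.44e-05), in the direction of the labels; where it lies relative to the deleted part is not given in the sources used here.

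Collagens are trimers of alpha chains wound into a triple helix, and each gene encodes 1 alpha chain. Fibrillar collagens (types I, III and V in most soft tissue) form the ropes of the interstitial matrix, and type V sets fibril diameter. Type IV collagen forms the sheet of basement membranes, which surrounds every adipocyte and every vessel. Type VI forms beaded filaments next to the adipocyte surface, and its Col6a3 chain also gives rise to a secreted fragment, endotrophin. Collagen made by progenitors, fibroblasts and adipocytes accumulates in expanding visceral fat.

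Levels are normalised read counts in CPM, the counts scaled to library totals adjusted by trimmed-mean (TMM) factors, and fold changes are log2 of Srgn-/- over Srgn+/+ with a standard error (SE) from the edgeR quasi-likelihood fit on all 12719 genes that passed the low-count filter. Of the 37 collagen genes, 26 passed that filter and 11 did not. No collagen gene passed an adjusted p of 0.05 in edgeR (smallest 0.247, Col5a3), where 0.00786% of all tested genes, Srgn alone, passed. The DESeq2 Wald test and limma-voom also called 0 collagen genes at that threshold. At an unadjusted p under 0.05, 5 of the 26 collagen genes (19.2%) had higher and 1 (3.85%) lower values in Srgn-/-, beside 6.77% and 6.06% of all tested genes. The higher count was 2 without Srgn+/+ 4, and 3 without any single one of Srgn+/+ 2, Srgn+/+ 3, Srgn-/- 2, Srgn-/- 3 or Srgn-/- 5; the lower count was 2 without Srgn+/+ 1 and 0 without Srgn+/+ 2, Srgn+/+ 4, Srgn-/- 2, Srgn-/- 3 or Srgn-/- 5. The higher 5 were Col5a3, Col1a2, Col14a1, Col27a1 and Col4a4, and the lower 1 was Col5a2. Col27a1 passed the filter through its Srgn-/- libraries, 5 of which reached the level the filter asks for against 1 Srgn+/+ library, and it therefore supports nothing here; without it the count was 4 of 25 (16%). For 0 of the 26 did the groups fail to overlap, where 1.39% of all tested genes lay wholly higher and 1.38% wholly lower in Srgn-/-. The median log2 fold change was 0.02 over the 26 collagen genes and -0.00138 over all tested genes, with 14 collagen genes higher and 12 lower.

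One library stood apart. Srgn+/+ 1 had the lowest level of all 10 libraries for 15 of the 26 tested collagen genes, and for 13 of the 17 with a mean of at least 20 CPM (76.5%), while over all tested genes it was lowest for 19.4%. Collagen amplicons took 0.863 ± 0.171% of the reads in Srgn+/+ and 0.945 ± 0.0715% in Srgn-/- (SD, n = 5); Srgn+/+ 1 gave 0.560%, and the other 9 libraries gave 0.874% to 1.04%. The same library had the lowest summed level of 12 macrophage genes, 1814 CPM, while Srgn+/+ 2 to 5 had 3571, 4331, 3674 and 6107 CPM and Srgn-/- 1 to 5 had 3621, 1919, 1896, 3371 and 2348 CPM. It also had the highest sum of 12 adipocyte genes, 52658 CPM, against 34304 to 44395 CPM elsewhere. Of that sum Cfd alone gave 10857 CPM, against 1334 to 4126 CPM in the other libraries. Adipoq, Plin1, Plin4, Lipe, Pnpla2, Slc2a4 and Pparg were also highest in Srgn+/+ 1. Lep was lowest there (1979 CPM, against 3003 to 4879 CPM), and Cidec, Fabp4 and Retn were neither. The 12 progenitor and fibroblast genes summed to 2873 CPM in Srgn+/+ 1, inside the range of the other libraries (2356 to 3083 CPM). Most of that sum was Dcn, which was highest in this library at 2038 CPM. Thy1 (90.7 CPM), Lum (27.5 CPM), Sema3c (49.6 CPM) and Fap (7.80 CPM) were lowest in it. The remaining genes of that list were neither lowest nor highest in it. In whole tissue, fewer cells of a type and less RNA per cell cannot be told apart, and the part of these differences in the collagen values was not tested. In addition, 3 libraries were rich in RNA typical of the epididymis, the sperm-maturing duct beside this fat depot. The 18 epididymis genes in the table summed to 848 CPM in Srgn+/+ 4, 7242 CPM in Srgn-/- 3 and 1092 CPM in Srgn-/- 5, and to 27.1 to 84.8 CPM in the other 7 libraries. Most of the sum in each of those 7 libraries was Lcn2 alone, at 25.1 to 82.2 CPM. In Srgn+/+ 4, Srgn-/- 3 and Srgn-/- 5 Lcn2 had 87.1, 579 and 51.7 CPM. Values without Srgn+/+ 1, or without these 3 epididymis-rich libraries, are given beside several of the main results that they change. Both were run with the data in view, and the second leaves 4 against 3 libraries.

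**Figure D1:**
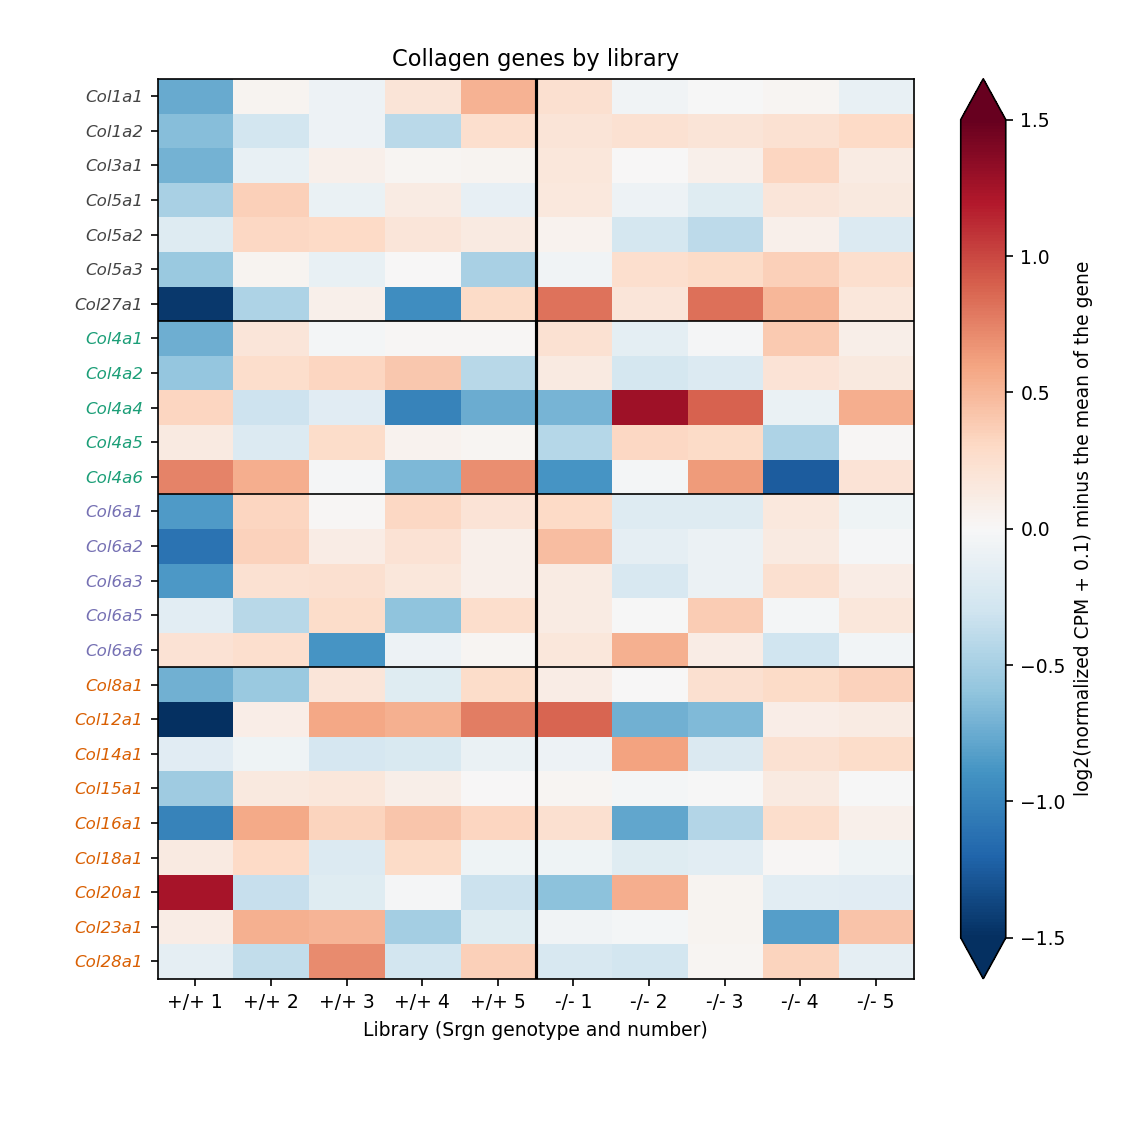
Each cell is the level of a tested collagen gene (row, coloured by class) in a library (column), as log2(normalized CPM + 0.1) minus the mean of that gene over the 10 libraries; red is above and blue below the mean. The first column, Srgn+/+ 1, is the lowest for 15 of the 26 genes, among them Col6a1, Col6a2, Col6a3 and Col12a1.

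Fibrillar collagens had a median log2 fold change of 0.25 over 7 tested genes (0.16 over the 6 other than Col27a1, and 0.13 over all 7 without Srgn+/+ 1). Type I collagen, the main fibril former, is built from the chains of Col1a1 and Col1a2. Col1a2 had 375, 483, 556, 443 and 697 CPM in Srgn+/+ 1 to 5 and 669, 688, 669, 688 and 717 CPM in Srgn-/- 1 to 5. The Srgn-/- libraries lay close together at or above all Srgn+/+ libraries but Srgn+/+ 5, which fell among them. Its means were 511 ± 123 and 686 ± 19.8 CPM (SD, n = 5; log2 0.43, SE 0.144, unadjusted p = 0.0117, edgeR adjusted p = 0.270). Without Srgn+/+ 1 the difference was 0.33 (unadjusted p = 0.0193 in edgeR), and without the 3 epididymis-rich libraries 0.37 (unadjusted p = 0.0953 in edgeR). Col1a1 showed no such offset, with 454, 790, 726, 876 and 1100.0 CPM in Srgn+/+ and 904, 740, 765, 784 and 709.8 CPM in Srgn-/-. Every Srgn-/- value of Col1a1 lay inside the Srgn+/+ range (log2 -0.02, SE 0.187, edgeR adjusted p = 0.980), and this sign turned with other scalings.

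Col3a1, the homotrimeric collagen that mixes with type I in soft fibrils, had 507, 768, 873, 844 and 853 CPM in Srgn+/+ and 934, 831, 875, 1034 and 906 CPM in Srgn-/-. The groups overlapped through Srgn-/- 2 alone (log2 0.25, SE 0.142, edgeR adjusted p = 0.480), and the difference shrank to 0.13 without Srgn+/+ 1.

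Type V collagen, which nucleates fibrils and limits their width, is made from the chains of Col5a1, Col5a2 and Col5a3. Col5a3, the chain found in the rarer three-chain form, had the smallest p of the set. It read 165, 251, 226, 246 and 175 CPM in Srgn+/+ and 235, 291, 298, 312 and 292 CPM in Srgn-/-. All Srgn-/- libraries except Srgn-/- 1 were above every Srgn+/+ library (212 ± 40.1 and 285 ± 29.4 CPM, SD, n = 5; log2 0.43, SE 0.133, unadjusted p = 0.00765, edgeR adjusted p = 0.247). Col5a2 went the other way, with 168, 239, 237, 219 and 211 CPM in Srgn+/+ and 199, 161, 147, 203 and 166 CPM in Srgn-/-. Apart from Srgn+/+ 1, every Srgn+/+ library lay above every Srgn-/- library (215 ± 28.5 and 175 ± 24.9 CPM, SD, n = 5; log2 -0.29, SE 0.122, unadjusted p = 0.0332, edgeR adjusted p = 0.353). Without Srgn+/+ 1 the log2 difference of Col5a2 was -0.37 (unadjusted p = 0.00480 in edgeR). Without the 3 epididymis-rich libraries it was -0.19 (unadjusted p = 0.274 in edgeR). Col5a1, the chain shared by all type V molecules, had 222, 398, 291, 340 and 287 CPM in Srgn+/+ and 348, 295, 275, 354 and 345 CPM in Srgn-/-, with the groups interleaved (log2 0.07, SE 0.144, edgeR adjusted p = 0.864).

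Col27a1, a fibrillar collagen known from cartilage, was near the filter limit, with 3, 7, 10, 4 and 9 reads in Srgn+/+ and 18, 10, 15, 11 and 10 reads in Srgn-/- (log2 0.99, SE 0.405, edgeR adjusted p = 0.349). Of the 8 cartilage and bone genes in the table, looked at for that reason, Acan, Matn1, Matn3, Sp7 and Ibsp averaged at most 0.12 CPM in either group. Hapln1 had 0.218 CPM in Srgn+/+ and 0.486 CPM in Srgn-/-, Lect1 had 1.22 and 1.55 CPM, and Sox9, which other cells express too, had 12.4 and 22.9 CPM. Of these 8, Lect1 and Sox9 passed the filter, both with higher values in Srgn-/-, Sox9 at an unadjusted p of 0.00624 (edgeR adjusted p = 0.247). The part of both in the Col27a1 values was not tested. The Col27a1 difference was 0.78 without Srgn+/+ 1 (unadjusted p = 0.0755 in edgeR) and 0.87 without the epididymis-rich libraries (unadjusted p = 0.138 in edgeR).

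The regions just before the type V genes are shown because type V holds both the collagen gene with the smallest p among higher values and the 1 with a lower value at an unadjusted p under 0.05. The windows of Col5a1 and Col5a3 were read from the RefSeq promoter table of build GRCm38.p6. That build differs from the mm9 build of the counts, and the table was not joined to them by position. The table matched 29 of the 37 collagen genes by symbol, and Col1a1, Col5a2 and Col14a1 were among the 8 not matched. No window of Col5a2, the gene with the lower value, is therefore shown. Each line gives the 250 bases before the annotated start, 5′ to 3′ in the direction of the gene, with Col5a1 at chr2:27886175-27886424 (plus strand) and Col5a3 at chr9:20815068-20815317 (minus strand). Capitals mark exact matches, on either strand, to the CCAAT box, the TATAAA box or the GC box GGGCGG.
Col5a1: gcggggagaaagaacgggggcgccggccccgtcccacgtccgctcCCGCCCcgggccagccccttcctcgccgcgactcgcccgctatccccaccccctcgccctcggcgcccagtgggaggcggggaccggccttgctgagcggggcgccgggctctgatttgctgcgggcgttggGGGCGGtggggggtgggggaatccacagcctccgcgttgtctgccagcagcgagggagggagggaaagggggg
Col5a3: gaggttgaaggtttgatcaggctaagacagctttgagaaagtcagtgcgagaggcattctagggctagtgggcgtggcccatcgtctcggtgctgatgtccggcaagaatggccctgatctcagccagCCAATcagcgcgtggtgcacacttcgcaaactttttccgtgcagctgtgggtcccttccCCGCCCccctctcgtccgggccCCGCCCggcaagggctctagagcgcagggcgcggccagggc

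Col5a1 had 2 GC boxes and neither of the other motifs, at 76.4% G and C, and Col5a3 had 2 GC boxes and 1 CCAAT box, at 62.8%; no matches overlapped. Among the 31 windows of collagen genes, 20 (64.5%) held a GC box, 11 (35.5%) a CCAAT box and 4 (12.9%) a TATAAA box. Over all 32851 windows of the table these shares were 32.7%, 33.8% and 12.4%. A match is a description of letters and not evidence of binding.

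Basement membrane collagens had a median log2 fold change of -0.04 over 5 tested genes, which turned to 0.01 with library totals, 0.05 with limma-trend and 0.09 without the epididymis-rich libraries. Col4a1 and Col4a2 encode the chains of the common type IV trimer of all basement membranes, and they lie head to head. Their RefSeq windows of 300 bases hold 250 bases before and 50 after the annotated start. They lie at chr8:11312777-11313076 on the minus strand and chr8:11312555-11312854 on the plus strand in GRCm38.p6, and share 78 bases. Each shared base lies after the start of at least 1 of the genes, and the parts before the starts do not overlap. Col4a1 had 911, 1716, 1481, 1531 and 1537 CPM in Srgn+/+ and 1771, 1368, 1498, 1989 and 1613 CPM in Srgn-/-. Its groups overlapped broadly (log2 0.20, SE 0.165, edgeR adjusted p = 0.631), and without Srgn+/+ 1 the difference was 0.07. Col4a2 had 389.5, 696, 724, 766 and 436 CPM in Srgn+/+ and 635, 483, 502, 668 and 644 CPM in Srgn-/-. All 5 Srgn-/- values lay inside the Srgn+/+ range (log2 -0.04, SE 0.194, edgeR adjusted p = 0.952; above 0 with library totals alone).

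The minor type IV chains form the special networks of kidney, lung and some epithelia. Col4a4 had 7.03, 4.49, 4.97, 2.75 and 3.32 CPM in Srgn+/+ and 3.43, 13.6, 10.5, 5.23 and 8.20 CPM in Srgn-/- (log2 0.85, SE 0.367, unadjusted p = 0.0390, edgeR adjusted p = 0.369). Srgn-/- 2, 3 and 5 exceeded every Srgn+/+ library, while Srgn-/- 1 and 4 fell among them. Srgn-/- 3 and 5 are epididymis-rich, and without the 3 such libraries the Col4a4 difference was 0.58 (unadjusted p = 0.249 in edgeR). Without Srgn+/+ 1 the difference of Col4a4 was 1.07 (unadjusted p = 0.0143 in edgeR). Col4a3, its head-to-head neighbour, did not pass the filter and had 14, 8, 4, 7 and 5 reads in Srgn+/+ and 10, 17, 13, 7 and 15 reads in Srgn-/-. For both genes Srgn-/- 2 was the highest library. The summed level of 10 mesothelial genes, an epithelium-like cell layer of visceral fat, was 611, 462, 330, 385 and 350 CPM in Srgn+/+ and 264, 572, 563, 338 and 389 CPM in Srgn-/-, with Srgn+/+ 1 and Srgn-/- 2 and 3 the highest; its part in the Col4a4 values was not tested. Col4a5 had 6.45, 5.06, 7.11, 6.06 and 5.97 CPM in Srgn+/+ and 4.31, 7.26, 7.14, 4.21 and 5.90 CPM in Srgn-/- (log2 -0.09, SE 0.208). Its partner Col4a6 had 3.85, 3.34, 2.23, 1.37 and 3.72 CPM in Srgn+/+ and 1.18, 2.20, 3.57, 0.893 and 2.62 CPM in Srgn-/- (log2 -0.47, SE 0.407). Srgn-/- 1 and 4 were the lowest 2 libraries for both (edgeR adjusted p = 0.887 and 0.648 for the genotype), and without the epididymis-rich libraries the Col4a6 difference was -1.19 (unadjusted p = 0.0199 in edgeR).

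Type VI collagens had a median log2 fold change of 0.08 over 5 tested genes, and -0.10 without Srgn+/+ 1. Col6a1 had 1303, 2933, 2368, 2901 and 2694 CPM in Srgn+/+ and 2895, 2048, 2053, 2624 and 2243 CPM in Srgn-/- (log2 -0.04, SE 0.202, edgeR adjusted p = 0.951; above 0 with library totals alone). Col6a2 had 204, 558, 473, 509 and 464 CPM in Srgn+/+ and 604, 399, 414, 481 and 432 CPM in Srgn-/- (log2 0.08, SE 0.231, edgeR adjusted p = 0.912). Col6a3, the source of endotrophin, had 146, 311, 314, 299 and 279 CPM in Srgn+/+ and 289, 225, 249, 313 and 287 CPM in Srgn-/- (log2 0.02, SE 0.187, edgeR adjusted p = 0.979). In all 3 genes Srgn+/+ 1 was the lowest library and Srgn-/- 2 the next lowest, and the remaining libraries of the 2 genotypes interleaved. Without Srgn+/+ 1 the log2 differences were -0.20, -0.10 and -0.14, so that Col6a2 and Col6a3 changed sign. A p that misses the threshold does not show that the genotypes have equal levels.

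Upstream bases of Col6a2 and Col6a3 are shown because their chains assemble with that of Col6a1, to which both are compared below. The 250 bases before the start, from the same table and marked in the same way, lie at chr10:76623631-76623880 (minus strand, the upstream of 2 annotated Col6a2 starts) and chr1:90843972-90844221 (minus strand).
Col6a2: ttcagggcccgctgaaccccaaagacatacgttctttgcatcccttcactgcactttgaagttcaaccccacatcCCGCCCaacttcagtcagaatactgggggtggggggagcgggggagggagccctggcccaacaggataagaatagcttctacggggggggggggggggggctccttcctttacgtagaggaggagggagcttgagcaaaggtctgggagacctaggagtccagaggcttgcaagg
Col6a3: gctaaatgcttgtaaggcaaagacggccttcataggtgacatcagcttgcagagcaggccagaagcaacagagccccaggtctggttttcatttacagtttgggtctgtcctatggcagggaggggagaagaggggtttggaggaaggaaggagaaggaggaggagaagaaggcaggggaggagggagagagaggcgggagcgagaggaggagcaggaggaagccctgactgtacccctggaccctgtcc

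Col6a2 held 1 GC box and Col6a3 held none of the 3 motifs. The relatives of Col6a3 had their lowest values in other libraries. Col6a5 had 52.9, 44.0, 71.4, 38.9 and 70.9 CPM in Srgn+/+ and 63.9, 58.5, 76.7, 57.7 and 66.6 CPM in Srgn-/- (log2 0.22, SE 0.169, edgeR adjusted p = 0.605; 0.00904 without the epididymis-rich libraries). Srgn+/+ 1 was not its lowest library; Srgn+/+ 4 was. Col6a6 had 9.72, 9.94, 4.47, 7.89 and 8.49 CPM in Srgn+/+ and 9.41, 12.1, 9.05, 6.76 and 8.09 CPM in Srgn-/- (log2 0.17, SE 0.228, edgeR adjusted p = 0.789), and Srgn+/+ 3 was its lowest. Col6a4, a further relative, had reads in 2 libraries alone, 12 in Srgn+/+ 4 and 37 in Srgn-/- 3, and 0 reads in the other 8, where 3 reads would give 0.286 to 0.397 CPM, a floor for counting error only. Both are epididymis-rich libraries (848 and 7242 CPM), while Srgn-/- 5, at 1092 CPM, had no Col6a4 read. These sums differed in make-up. In Srgn+/+ 4, Srgn-/- 3 and Srgn-/- 5 the epididymis gene Gpx5 had 250, 2758 and 0.109 CPM, and Crisp1 had 12.4, 106 and 831 CPM. The part of epididymis RNA in the Col6a4 reads was not tested.

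**Figure D2:**
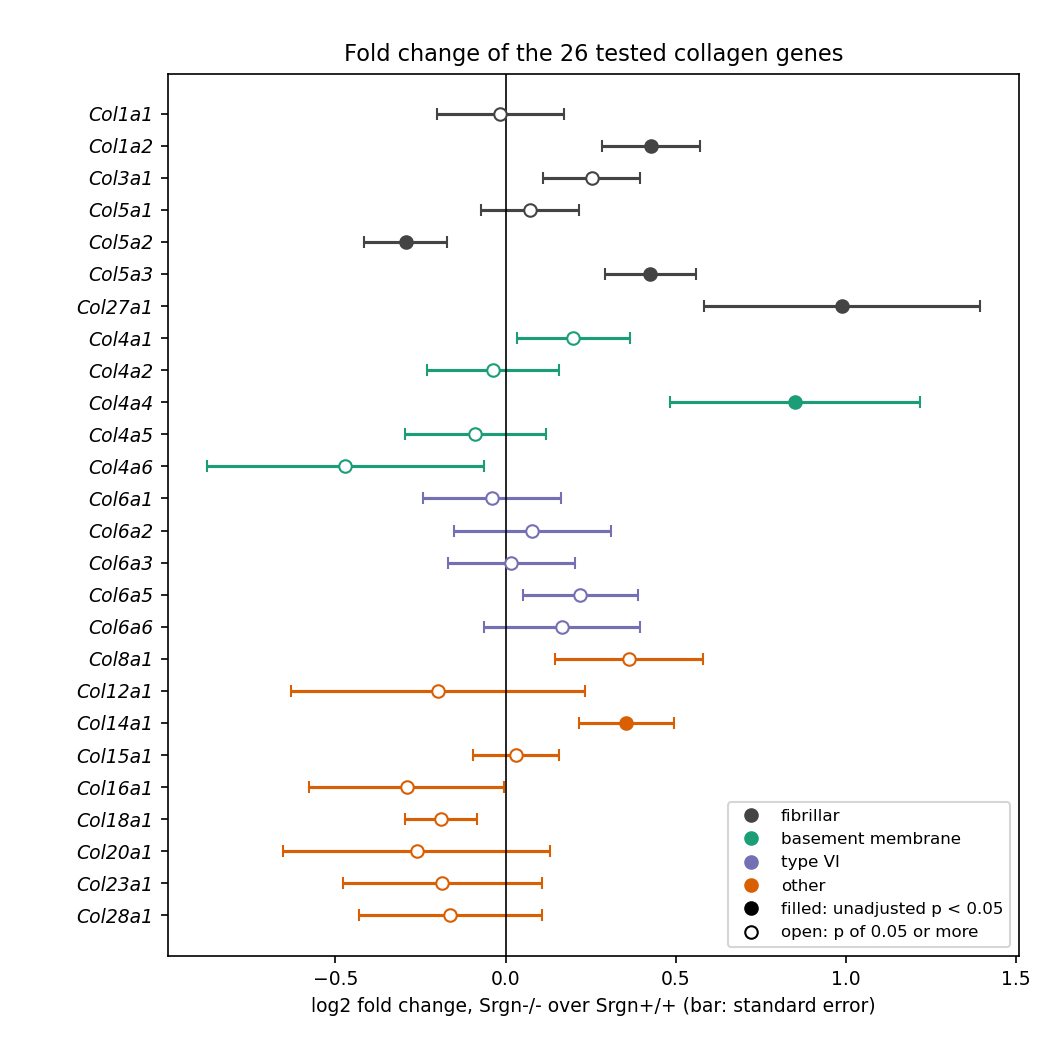
Points give the log2 fold change, Srgn-/- over Srgn+/+, of the 26 tested collagen genes with its standard error, coloured by class; filled points have an unadjusted p under 0.05 in edgeR and none passed after adjustment. Col5a2 lies at -0.29 and Col5a3 at 0.43, while Col6a1, Col6a2 and Col6a3 lie between -0.04 and 0.08.

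The other collagens had a median log2 fold change of -0.19 over 9 tested genes, 3 higher and 6 lower. Of the fibril-associated types, which sit on the surface of fibrils, Col14a1 (known for regulating fibril growth) had 35.6, 38.1, 33.4, 34.1 and 37.2 CPM in Srgn+/+ and 37.8, 60.6, 34.3, 46.8 and 48.5 CPM in Srgn-/-. The Srgn+/+ libraries lay within 5 CPM of each other, Srgn-/- 2, 4 and 5 stood above them all, and Srgn-/- 1 and 3 fell among them (log2 0.35, SE 0.140, unadjusted p = 0.0257, edgeR adjusted p = 0.335). Col12a1, a stress-responsive fibril-associated collagen, varied widely between libraries, with 6.16, 21.7, 30.3, 29.4 and 34.6 CPM in Srgn+/+ and 37.1, 12.2, 12.7, 21.7 and 22.1 CPM in Srgn-/- (log2 -0.20, SE 0.432, edgeR adjusted p = 0.876; -0.45 without Srgn+/+ 1 and 0.04 without the epididymis-rich libraries). Its low libraries, Srgn+/+ 1 and Srgn-/- 2 and 3, were also the 3 with the lowest macrophage sums. They had the 3 highest mesothelial sums too (611, 572 and 563 CPM), and the part of either in the Col12a1 values was not tested. Col16a1 had 14.6, 43.7, 36.9, 39.0 and 36.6 CPM in Srgn+/+ and 34.6, 17.1, 21.7, 35.3 and 30.8 CPM in Srgn-/-, and the same 3 libraries were its lowest. The Col16a1 difference was -0.29 (SE 0.286, edgeR adjusted p = 0.694), and -0.49 without Srgn+/+ 1 (unadjusted p = 0.0284 in edgeR).

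Col15a1 and Col18a1 encode the multiplexins of the basement membrane zone; the end of the Col18a1 protein is released as endostatin, an inhibitor of vessel growth. Col15a1 had 330, 529, 538, 508 and 481 CPM in Srgn+/+ and 490, 469, 478, 525 and 475 CPM in Srgn-/- (log2 0.03, SE 0.126, edgeR adjusted p = 0.941). Apart from Srgn+/+ 1 all libraries lay between 469 and 538 CPM. Col18a1 had 174, 196, 138, 195 and 152 CPM in Srgn+/+ and 153, 140, 143, 162 and 153 CPM in Srgn-/- (log2 -0.19, SE 0.106, unadjusted p = 0.0981, edgeR adjusted p = 0.475). Here Srgn+/+ 1 was among the higher libraries, and the Srgn-/- values all lay inside the Srgn+/+ range. Col8a1, a short-chain network collagen of vessel walls, had 3.75, 4.20, 7.11, 5.49 and 7.56 CPM in Srgn+/+ and 6.76, 6.27, 7.38, 7.65 and 7.98 CPM in Srgn-/- (log2 0.36, SE 0.217, edgeR adjusted p = 0.508). The remaining tested genes Col20a1, Col23a1 and Col28a1 had means of 1.83 to 3.93 CPM and log2 differences of -0.26, -0.19 and -0.16, none past the threshold. Col20a1 had 4.52 CPM in Srgn+/+ 1 and 1.18 to 2.75 CPM elsewhere, and without that library its difference was 0.20.

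**Figure D3:**
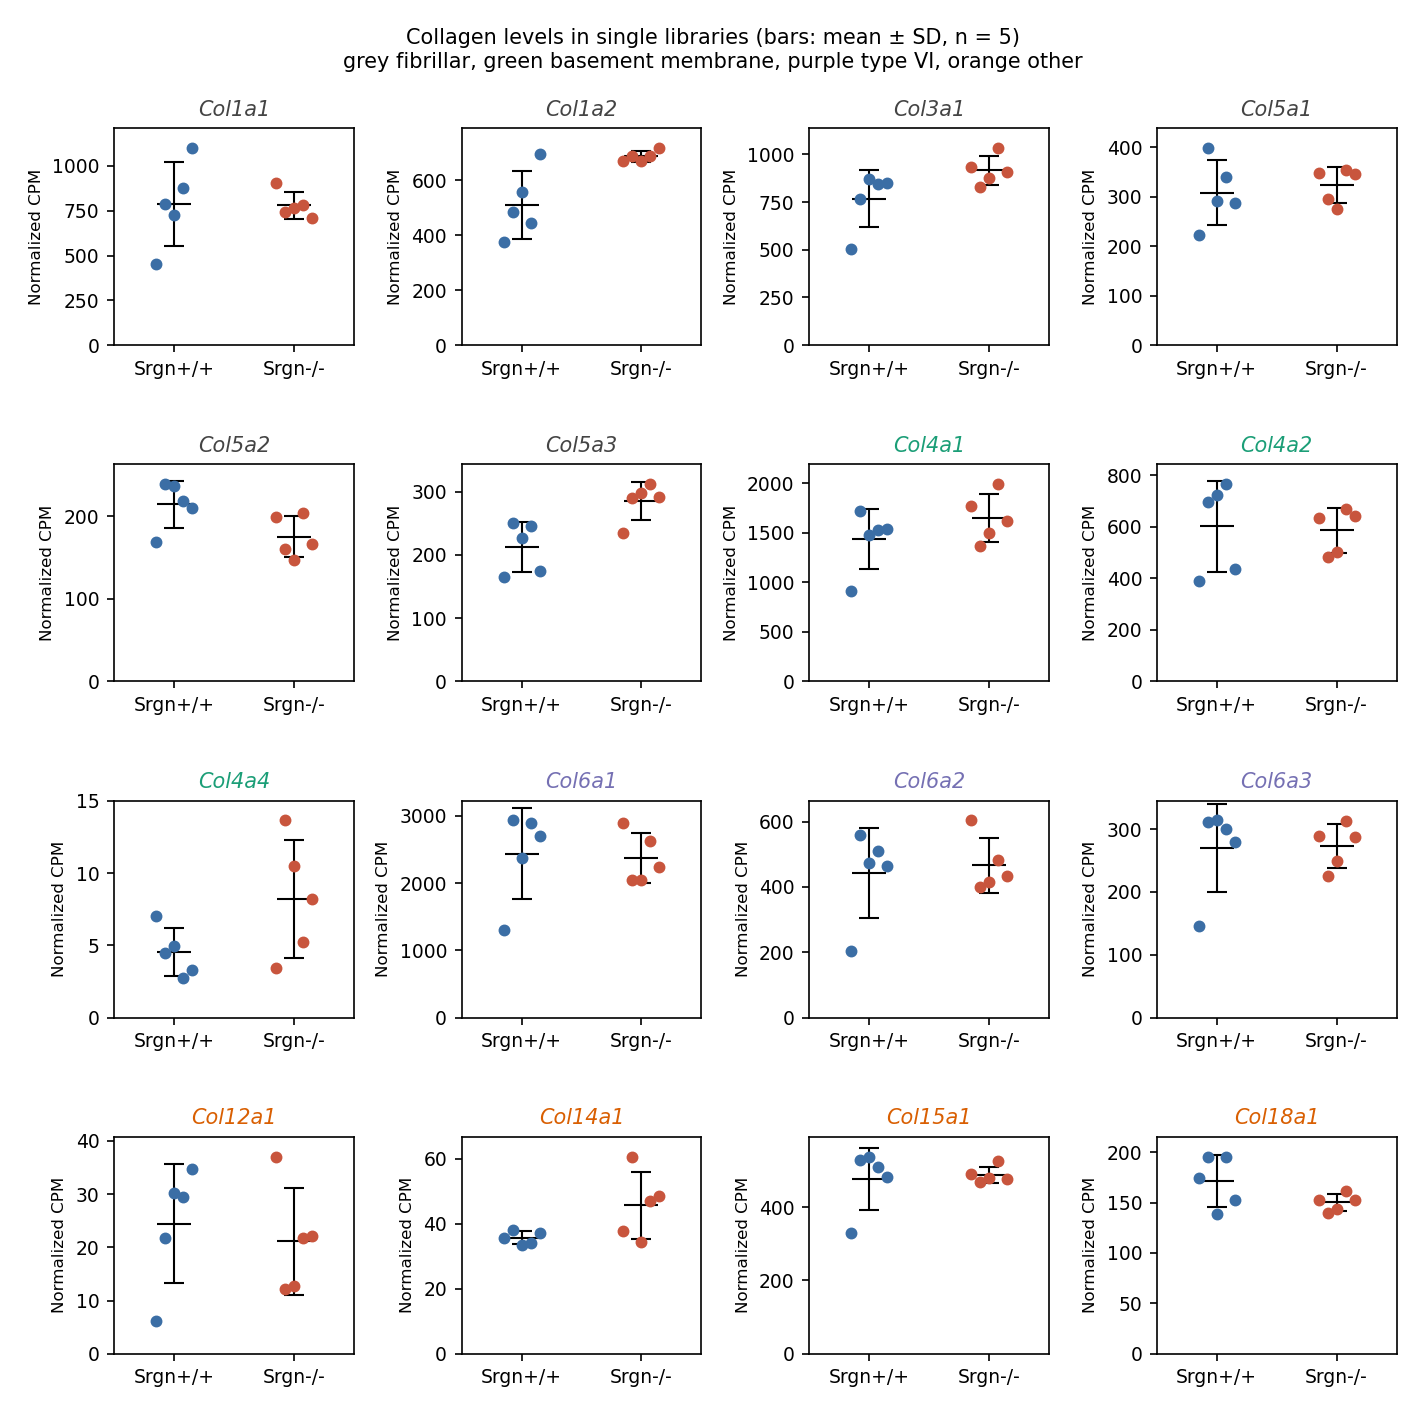
Dots are the levels of 16 collagen genes in single libraries (y axis, normalized CPM from 0; x axis, genotype), ordered by library number within a group, with the mean and SD over 5 libraries as bars. Srgn+/+ 1, the leftmost blue dot, is low in Col6a1 (1303 CPM), Col6a2 (204 CPM) and Col3a1 (507 CPM) but not in Col18a1 (174 CPM) or Col4a4 (7.03 CPM).

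The 11 collagen genes with too few reads for the filter were Col2a1, Col11a1, Col11a2, Col4a3, Col6a4, Col7a1, Col8a2, Col9a3, Col13a1, Col17a1 and Col26a1, with 20 to 100 reads each over the 10 libraries. Col11a1, a minor fibrillar chain, had 4, 1, 4, 1 and 0 reads in Srgn+/+ and 3, 7, 9, 6 and 6 reads in Srgn-/-. Col13a1, a transmembrane collagen of cell junctions, had 4, 0, 1, 1 and 0 reads in Srgn+/+ and 1, 7, 9, 2 and 9 reads in Srgn-/-. In the fit with no low-count filter they had unadjusted p = 0.0417 and 0.0321 and edgeR adjusted p = 0.535 and 0.515, and at such counts the groups still overlapped. No other gene of these 11 had an unadjusted p under 0.05 in that fit, where 9.17% of all 22249 genes did, in either direction. Col17a1, the transmembrane collagen of epithelial hemidesmosomes, had 20 of its 27 reads in Srgn-/- 3, and Col7a1, the anchoring fibril beneath epithelia, had 15 of its 40 reads there. Srgn-/- 3 was the library with the most epididymis RNA (7242 CPM for the 18 genes), whose part in these reads was not tested. Col8a2, the partner of Col8a1, had 5, 5, 4, 1 and 1 reads in Srgn+/+ and 6, 10, 5, 7 and 4 in Srgn-/-.

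Because chains of a trimer are read in the same library, the ratio of their reads is free of library scaling. Ratios of 9 pairs were compared between the genotypes, all of partner chains except Col3a1 over Col1a1, whose collagen types mix in fibrils. The two-sided exact permutation test ran over the 252 ways to split 10 libraries, and its smallest possible p is 0.00794. The choice to test ratios was made after the levels were seen. Col5a2 over Col5a1 was 0.757, 0.600, 0.812, 0.643 and 0.734 in Srgn+/+ and 0.572, 0.545, 0.532, 0.574 and 0.481 in Srgn-/-. Every Srgn-/- library lay below every Srgn+/+ library, with Srgn+/+ 2 and Srgn-/- 4 the closest. The mean log2 ratio was -0.505 ± 0.179 and -0.889 ± 0.104 (SD, n = 5), a difference of -0.38 (exact permutation p = 0.00794, adjusted over the 9 pairs 0.0714, so not past 0.05). With 9 pairs, 1 ratio at the smallest possible p could not pass 0.05 after adjustment unless other ratios also had a low p. Without the epididymis-rich libraries the Col5a2 over Col5a1 difference was -0.36 (exact permutation p = 0.0571, with 4 against 3 libraries).

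Col1a2 over Col1a1 was 0.826, 0.611, 0.766, 0.506 and 0.633 in Srgn+/+ and 0.740, 0.930, 0.875, 0.877 and 1.01 in Srgn-/-. Srgn-/- 1 fell among the Srgn+/+ libraries and the other 4 lay above them all (log2 difference 0.42, exact permutation p = 0.0238, adjusted 0.107). Without the epididymis-rich libraries this difference was 0.26 (exact permutation p = 0.171). The other 7 of these ratios differed by -0.43 to 0.94 on the log2 scale with exact permutation p of 0.0714 to 0.873. Among them Col6a2 over Col6a1 was 0.156 to 0.200 in Srgn+/+ and 0.183 to 0.209 in Srgn-/-, and Col6a3 over Col6a1 was 0.103 to 0.133 and 0.10 to 0.128. Srgn+/+ 1, the lowest library for all 3 chains, had the lowest Col6a2 ratio and a Col6a3 ratio inside the range of the others. Col5a3 over Col5a2, chosen after its values were seen and given without a test, was 0.981, 1.05, 0.955, 1.12 and 0.829 in Srgn+/+ and 1.18, 1.81, 2.03, 1.53 and 1.75 in Srgn-/-. The groups did not overlap, and the mean log2 ratios were -0.03 and 0.71.

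**Figure D4:**
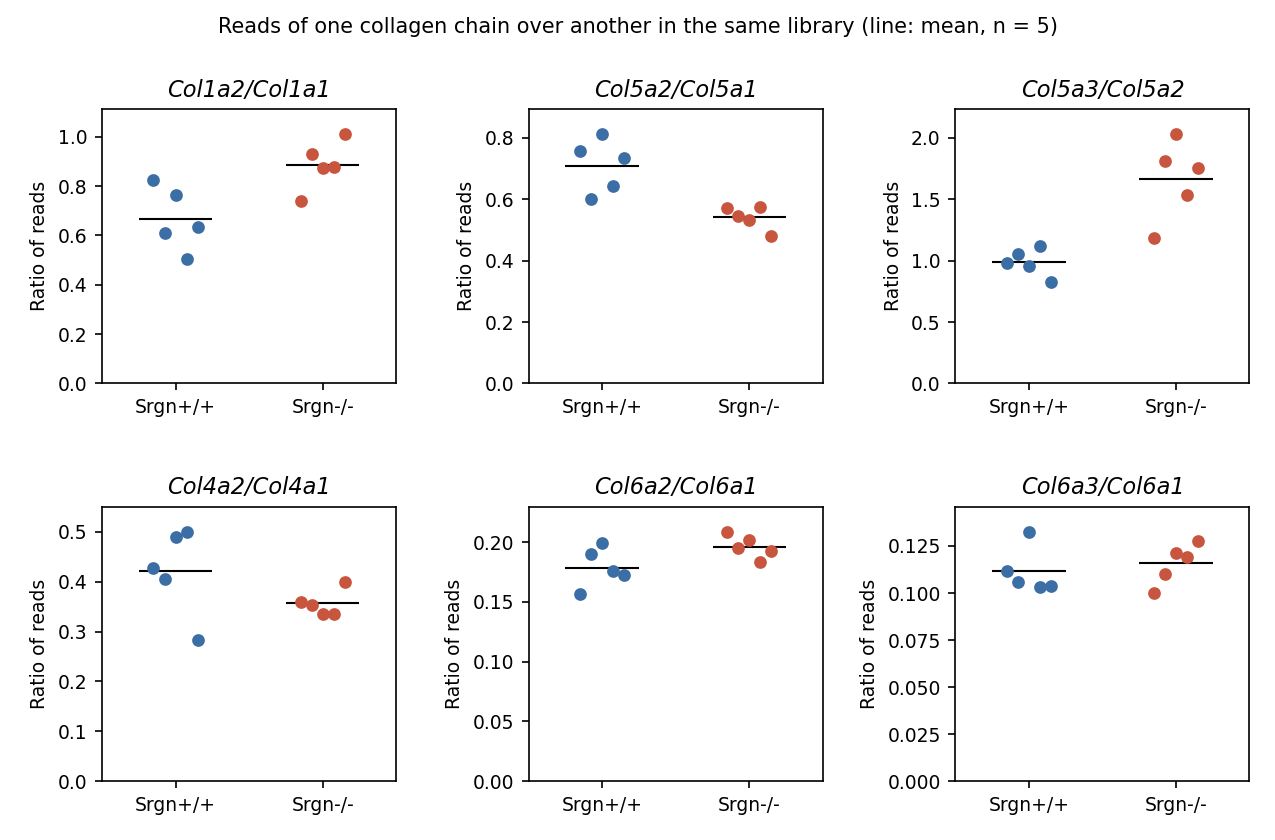
Each panel plots the reads of one collagen chain over those of another in the same library (y axis, ratio from 0; x axis, genotype), with a line at the mean of 5 libraries. Col5a2/Col5a1 is 0.600 to 0.812 in Srgn+/+ and 0.481 to 0.574 in Srgn-/-, Col5a3/Col5a2 is 0.829 to 1.12 and 1.18 to 2.03, and the type VI ratios overlap between the genotypes.

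The same 9 pairs were correlated over the 10 libraries on log2 CPM, with two-sided permutation p-values adjusted over the 9. Col6a1 and Col6a2 varied together most closely (Pearson r = 0.966, permutation p = 3e-05, adjusted 0.00027; Spearman rho = 0.927, permutation p = 0.00038, adjusted 0.00342). Without the 2 libraries farthest from the Col6a1 median, Srgn+/+ 1 and Srgn-/- 2, r was 0.866. For Col6a1 and Col6a3, r was 0.921 (permutation p = 0.00184, adjusted 0.00828) and rho 0.661 (permutation p = 0.0428, adjusted 0.128). Without the same 2 libraries r was 0.574 (exact permutation p = 0.130), so that the size of r depends on them. Leaving out the farthest libraries narrows the range, so a lower r does not show that no relation remains. For this pair r was 0.712 without Srgn+/+ 1 alone, and 0.925 with values centred on each genotype's mean. The head-to-head genes Col4a3 and Col4a4 had r = 0.763 (permutation p = 0.0107, adjusted 0.0320), rho = 0.770 (permutation p = 0.0122, adjusted 0.0547), and r = 0.878 without their 2 farthest libraries, Srgn+/+ 3 and Srgn-/- 2. Col4a1 and Col4a2 had r = 0.683 (permutation p = 0.0175, adjusted 0.0395) and rho = 0.370 (permutation p = 0.295, adjusted 0.443). Here r was 0.410 without Srgn+/+ 1 and Srgn-/- 4, so its size depends on those libraries, and 0.738 once centred on the genotype.

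Col1a1 and Col1a2 had r = 0.556 (permutation p = 0.0990, adjusted 0.127) and rho = 0.127 (permutation p = 0.735, adjusted 0.827), and r was -0.38 without Srgn+/+ 1 and 5. With the values centred on each genotype's mean, r was 0.749. Col5a1 and Col5a2 had r = 0.496 (permutation p = 0.144, adjusted 0.162) and rho = 0.406 (permutation p = 0.246, adjusted 0.443), with r = 0.251 without Srgn+/+ 1 and 2, and 0.812 once centred on the genotype. The remaining 3 pairs, Col1a1 with Col3a1, Col4a5 with Col4a6 and Col8a1 with Col8a2, had r of 0.730, 0.605 and 0.0665 (adjusted permutation p = 0.0982, 0.0982 and 0.865), and rho of 0.200, 0.394 and 0.0303 (adjusted permutation p = 0.751, 0.443 and 0.945). Without their 2 farthest libraries r was 0.0765, -0.15 and 0.213. Each genotype holds 5 libraries, too few for a correlation within it.

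Genes that process, bind or answer to collagen were taken from 5 lists, and 0 of their 75 tested members passed in edgeR after adjustment. Collagen folding and modification had 20 tested members, 6 higher and 14 lower (median log2 -0.02), none at an unadjusted p under 0.05. Their smallest p belonged to the prolyl hydroxylase subunit P4ha1 (54.7 ± 8.60 CPM in Srgn+/+ and 46.8 ± 7.58 CPM in Srgn-/-), to Mia2, an export factor of the endoplasmic reticulum (1.16 ± 0.558 and 2.18 ± 1.84 CPM), to P3h4 (22.6 ± 4.25 and 19.3 ± 3.28 CPM) and to P4ha2 (50.7 ± 5.44 and 46.2 ± 3.66 CPM). Trimming and cross-linking had 13 tested members, 3 higher and 10 lower (median -0.06), again with none at an unadjusted p under 0.05. The procollagen protease relative Tll2 had 1.01 ± 0.435 and 1.68 ± 0.5 CPM, the transglutaminase Tgm2 had 241 ± 60.1 and 191 ± 57.1 CPM, the N-proteinase Adamts2 had 240.0 ± 34.6 and 223 ± 32.0 CPM, and the lysyl oxidase relative Loxl3 had 15.9 ± 3.86 and 14.3 ± 2.52 CPM.

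Fibril assembly partners had 12 tested members, 6 in each direction (median -0.01), of which 2 were higher and 1 lower at an unadjusted p under 0.05, beside 6.77% and 6.06% of all tested genes. Sparc, a matrix protein that binds collagen and chaperones its deposition, had 4439, 6356, 5997, 6302 and 5292 CPM in Srgn+/+ and 7146, 6313, 7826, 8301 and 7210.0 CPM in Srgn-/-. Srgn-/- 2 alone fell within the Srgn+/+ range (log2 0.37, SE 0.130, unadjusted p = 0.0138, edgeR adjusted p = 0.282). Bgn, a small proteoglycan on fibrils, had 372 ± 90.4 and 466 ± 17.1 CPM (log2 0.32, edgeR adjusted p = 0.379), with Srgn-/- libraries as close together as for Col1a2, between 444 and 482 CPM. Thbs2, which limits fibril size, had 75.4 ± 8.16 and 60.9 ± 12.1 CPM (log2 -0.31, edgeR adjusted p = 0.372), and the microfibril protein Fbn1 had 414 ± 52.9 and 525 ± 143 CPM (log2 0.34, edgeR adjusted p = 0.395), with 777 CPM in Srgn-/- 2.

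Collagen receptors and uptake had 9 tested members, 4 higher and 5 lower (median -0.01), none at an unadjusted p under 0.05. The integrin chains Itga1 (92.8 ± 16 and 109 ± 13.4 CPM), Itga11 (14.5 ± 0.956 and 17.9 ± 5.42 CPM) and Itga2 (1.28 ± 0.375 and 1.47 ± 0.643 CPM) and the leukocyte collagen receptor Lair1 (28.8 ± 20.5 and 18.0 ± 7.09 CPM) had the smallest p. Lair1 was lowest in Srgn+/+ 1 (5.29 CPM) and highest in Srgn+/+ 5 (60.2 CPM), the libraries with the lowest and highest macrophage sums. Profibrotic signalling had 21 tested members, 11 higher and 10 lower (median 0.03). Smad3, which carries the TGF-beta signal to collagen genes, was the single member at an unadjusted p under 0.05, with 30.5, 38.3, 47.7, 53.6 and 29.9 CPM in Srgn+/+ and 32.4, 34.9, 24.3, 27.4 and 28.4 CPM in Srgn-/- (log2 -0.44, SE 0.172, unadjusted p = 0.0247, edgeR adjusted p = 0.333). Srgn+/+ 1 and 5 lay among the Srgn-/- libraries. Its relative Smad2 had 37.0 ± 4.35 and 43.2 ± 3.52 CPM, Acta2, the actin of myofibroblasts and smooth muscle, 338 ± 98 and 455 ± 97 CPM, and Pdgfra, a receptor of fibroblast progenitors, 37.8 ± 6.16 and 32.2 ± 3.76 CPM.

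Markers of the cells that could carry collagen RNA overlapped between the genotypes. The summed level of 12 progenitor and fibroblast genes was 2445 to 3083 CPM in Srgn+/+ and 2356 to 2962 CPM in Srgn-/-, and 2 of the 12 were higher and 1 lower at an unadjusted p under 0.05. Dcn alone gave 1388 to 2038 CPM of these sums in Srgn+/+ and 1389 to 1802 CPM in Srgn-/-. The 10 endothelial genes summed to 774 to 1038 CPM and 798 to 1133 CPM, with Srgn-/- 2 to 5 above all Srgn+/+ libraries at 1108 to 1133 CPM; 8 of the 10 had higher values in Srgn-/- (median log2 0.28), 3 of them at an unadjusted p under 0.05. Smooth muscle and pericyte genes, 10 of 11 in the table, summed to 1159 to 1786 CPM and 1391 to 1720 CPM, with 1 higher at an unadjusted p under 0.05. The 10 mesothelial genes had 4 members higher and 6 lower (median log2 -0.06), the 12 adipocyte genes 4 higher and 8 lower (median -0.05), and all 11 tested macrophage genes had lower values in Srgn-/- (median -0.43; 0 passed after adjustment in edgeR and 3 had an unadjusted p under 0.05). Over all tested genes 6.77% were higher and 6.06% lower at that threshold. None of these lists had a member at 0 reads in all libraries, and their part in the collagen values was not tested.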

How the data were processed

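Total RNA of 10 fat samples was amplified with the Ion AmpliSeq mouse transcriptome kit and read on an Ion S5 XL sequencer, per the labels' protocols. The genome build was mm9, per the submitters' processing notes. No aligner or read counter is named in the labels, headers or notes used. The authors deposited raw counts for 23930 amplicons, 1 per gene, and a table of RPM values, which equal the counts scaled by the column total to within 0.000591. The reads stem from PCR and carry no molecular identifiers, and a floor covers no more than counting error.

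Counts were analysed with edgeR 4.0.16 in R 4.3.3: filterByExpr (minimum count 10, minimum total 15; 12719 genes kept, 11211 removed), TMM factors, the robust quasi-likelihood test, no covariate, and Benjamini-Hochberg adjustment over all tested genes at 0.05. The SE is the fold change divided by the root of the F statistic. The fit was tested on simulated data. Alternatives were DESeq2 1.42.0, limma 3.58.1 (voom on counts; trend on log2 RPM with pseudocount 1 or 0.5), other scalings, no filter, and leaving out libraries. Log2 CPM used a prior count of 2, and permutation tests of correlation 100000 resamples.

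The collagen genes, their classes, the pairs and the gene lists were chosen with earlier results of these data known. Values in every library are given for Srgn, each tested collagen with a mean of at least 20 CPM, the 2 with the smallest p in each class and both chains of each pair; from each pathway list the 4 tested genes of smallest p are named. Smad3, Sparc and other per-library values outside the collagens, Col27a1, Col6a4, Col7a1, Col11a1, Col13a1, Col17a1 and Col20a1, and the cell markers Sox9 and Acan with its neighbours in that list were detailed after their values were seen.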

Additional observations from a re-analysis of the deposited data

Results flagged for a closer look

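In 72 comparisons of a library with the other 4 of its genotype, over the 26 tested collagen genes and 10 chain ratios, 7 values lay far from the rest, where chance gives about 1 in 20 groups and these groups share libraries. Of the 7, 6 belong to Srgn+/+ 1. There Col3a1 had 507 CPM (768 to 873 CPM in the other Srgn+/+ libraries), Col6a2 204 CPM (464 to 558 CPM), Col6a3 146 CPM (279 to 314 CPM), Col15a1 330 CPM (481 to 538 CPM) and Col16a1 14.6 CPM (36.6 to 43.7 CPM). Col20a1 was far higher there, at 4.52 CPM against 1.43 to 1.83 CPM. The seventh value was Col5a3 in Srgn-/- 1, 235 CPM against 291 to 312 CPM in the other Srgn-/- libraries. The log2 difference of Col5a3 ranged from 0.35 to 0.49 as each single library was left out.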

How the results depend on the processing

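No collagen gene passed after adjustment under any alternative run; the smallest adjusted p of a collagen gene ranged from 0.0911 (DESeq2) to 0.999 (edgeR without the 3 epididymis-rich libraries, added once the data had been seen). DESeq2 called 118 higher and 108 lower genes in all. As single libraries were left out, the collagen count at an unadjusted p under 0.05 ranged from 2 to 5 higher and from 0 to 2 lower, and the higher count was 2 without the epididymis-rich libraries. The share of all tested genes at that threshold, in either direction, was 12.8% with all libraries, 8.70% (without Srgn-/- 3) to 17.6% (without Srgn+/+ 1) as single libraries were left out, and 4.17% without the epididymis-rich libraries. Class medians ranged from 0.13 to 0.30 (fibrillar), -0.10 to 0.06 (basement membrane), -0.10 to 0.14 (type VI) and -0.21 to -0.08 (other) as single libraries were left out. Log2 differences near 0 changed sign. Col1a1 was 0.0234 with upper-quartile factors, 0.0422 with library totals, 0.0310 with limma-voom, 0.0820 and 0.0821 with limma-trend at pseudocounts 1 and 0.5, and 0.0784 without the epididymis-rich libraries. Col4a2 was 0.0115 with library totals, 0.00479 with limma-voom, 0.0489 with limma-trend at either pseudocount and 0.0866 without the epididymis-rich libraries. Col6a1 was 0.0138 with library totals, 0.0491 with limma-trend at either pseudocount and 0.119 without the epididymis-rich libraries, where Col12a1 was 0.0380 and the Col6a3/Col6a1 ratio differed by -0.0452. Leaving out single libraries gave -0.162 to 0.135 for Col1a1, -0.161 to 0.0634 for Col4a2, -0.186 to 0.00273 for Col4a5, -0.0265 to 0.181 for Col5a1, -0.20 to 0.0344 for Col6a1, -0.105 to 0.177 for Col6a2, -0.142 to 0.0774 for Col6a3, -0.0773 to 0.0764 for Col15a1 and -0.257 to 0.202 for the Col4a4/Col4a3 ratio. The median log2 fold change over all tested genes moved up by 0.0311 with upper-quartile factors, 0.0509 with library totals and 0.0109 with limma-voom. With limma-trend at pseudocounts 1 and 0.5 that median moved up by 0.0493 and 0.0519, and without the epididymis-rich libraries by 0.00411. The cause of the sign changes was not tested. Correlations that changed sign were Col1a1-Col1a2 (r = -0.378) and Col4a5-Col4a6 (r = -0.149) without the 2 farthest libraries, and Col8a1-Col8a2 (r = -0.557) when centred on the genotype. No paired analysis was possible because the labels do not pair libraries across genotypes. Depth limits genes such as Col11a1 and Col13a1, with under 10 reads in every library.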
